A study of Drosophila melanogaster with 75 samples.

Results

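The mitochondrial ribosomal protein genes were followed in heads of Drosophila melanogaster males, across all 15 arrays of a study of the male response to mating. Every gene whose symbol in the array's annotation begins with mRpL or mRpS was taken, each through a probe set assigned to that gene alone, and the brightest probe set stood for a gene with more than 1. This gave 69 genes, 44 with mRpL symbols and 25 with mRpS symbols, out of 11981 genes with a probe set of their own. Large and small subunit stand below for these symbols alone. The place of each protein in the ribosome was not checked. All 69 passed the threshold of a mean intensity above 100, as did 6404 genes and 7631 probe sets in all. The males were of an isogenized Canton-S strain and 5 days old, had no earlier contact with females, and were collected 2 hrs after the mating. Control males were mock exposed and met no female, courted males were placed with a virgin female that had been cauterized, and mated males were placed with an intact virgin female and copulated. Each group had 5 replicates, and each replicate was 1 array with RNA from the heads of 30 pooled males, so that the number of arrays limits the precision. Values are log2 intensities made by GC-RMA in R/Bioconductor unless another algorithm is named, differences are differences of log2 intensities, and an intensity is not an amount of RNA that can be set against that of another probe set.

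Mitochondria keep a small genome of their own, which encodes core subunits of the respiratory chain and of ATP synthase. Those few messages are translated inside the organelle by a dedicated ribosome, whose RNAs come from the mitochondrial genome and whose proteins are all encoded in the nucleus, made in the cytosol and imported. Some of these proteins descend from proteins of the bacterial ribosome, and others joined the mitochondrial ribosome later and have no bacterial counterpart. Heads hold tissues with a high demand for ATP, among them the brain and the photoreceptors. The question put to the 69 genes was whether their messages differed among heads of control, courted and mated males.

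The genes lie on 5 chromosome arms, with 11 on X, 12 on 2L, 10 on 2R, 17 on 3L and 19 on 3R. By the numbering carried over from bacteria, 40 of the 69 have a bacterial counterpart (27 large, 13 small) and 29 do not (17 large, 12 small). Several subunits lie outside the naming rule. The messages of tko (the counterpart of bacterial S12) and bonsai (the counterpart of S15) carry other symbols, the probe sets of mRpS10 and mRpL53 are shared with a neighbouring gene, and mRpL34 and mRpL37 had no probe set assigned to them alone. These are given apart and are in none of the counts.

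Mean intensities ran from 182.4 for mRpL39 to 5764 for mRpS5, with a median of 783.9, against a median of 740.9 over all 7631 probe sets. The dimmest member, mRpL39, was thus well inside the threshold and no member fell below it. The 5 brightest probe sets were those of mRpS5, mRpL33 (mean intensity 4353), mRpL28 (3853), mRpS9 (3404) and mRpL24 (2460). The standard deviation among replicates of a group was between 0.050 for mRpL52 and 0.308 for mRpS2, and its median of 0.111 stood beside 0.126 over all probe sets. In the control arrays, mRpL52 read 10.08, 10.03, 10.20, 10.04 and 9.98 in replicates 1 to 5. The scatter of mRpS2, the counterpart of bacterial S2, came chiefly from 1 courted array, since its courted values were 8.41, 8.42, 8.25, 7.49 and 8.66 and replicate 4 was the lowest of all 15.

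As a check on the samples, the markers of tissues that a head lacks were all below the threshold, 5 of male accessory gland, 5 of testis and 4 of midgut. All 3 photoreceptor, 4 glial, 4 muscle and 5 haemocyte markers with a probe set were above it, as were 3 of 4 for fat body (Fbp1 was not). Of the 3 neuronal markers, nSyb was above the threshold while the probe sets of elav and brp were below it, so these did not register the neurons of the head. In limma fits over all 7631 probe sets, 3 were called between mated and control heads, 0 between courted and control heads and 4 between mated and courted heads at an adjusted p under 0.05. Since whole heads were used, fewer cells of a type and less RNA per cell cannot be told apart in any value below.

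Across the 15 arrays, the mitochondrial ribosomal protein genes tended to be high or low together. Each gene was set against its own mean over the 15 arrays, and the median of the 69 deviations was taken in each array. In control replicates 1 to 5 these medians were 0.10, 0.03, 0.17, -0.01 and -0.06. In the courted replicates they were -0.06, -0.02, 0.08, 0.04 and -0.08, and in the mated replicates -0.01, 0.03, -0.02, -0.12 and -0.02. The 3 groups overlapped, with control replicate 3 at the top and mated replicate 4 at the bottom. In control replicate 3, 66 of the 69 genes were above their own mean, and 33 had there the highest value of any array. In mated replicate 4, 8 of the 69 were above their mean. The highest of the 15 values of a gene fell in a control array for 46 genes, in a courted array for 21 and in a mated array for 2. The lowest fell in a control array for 9 genes, in a courted array for 40 and in a mated array for 20.

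**Figure D1:**
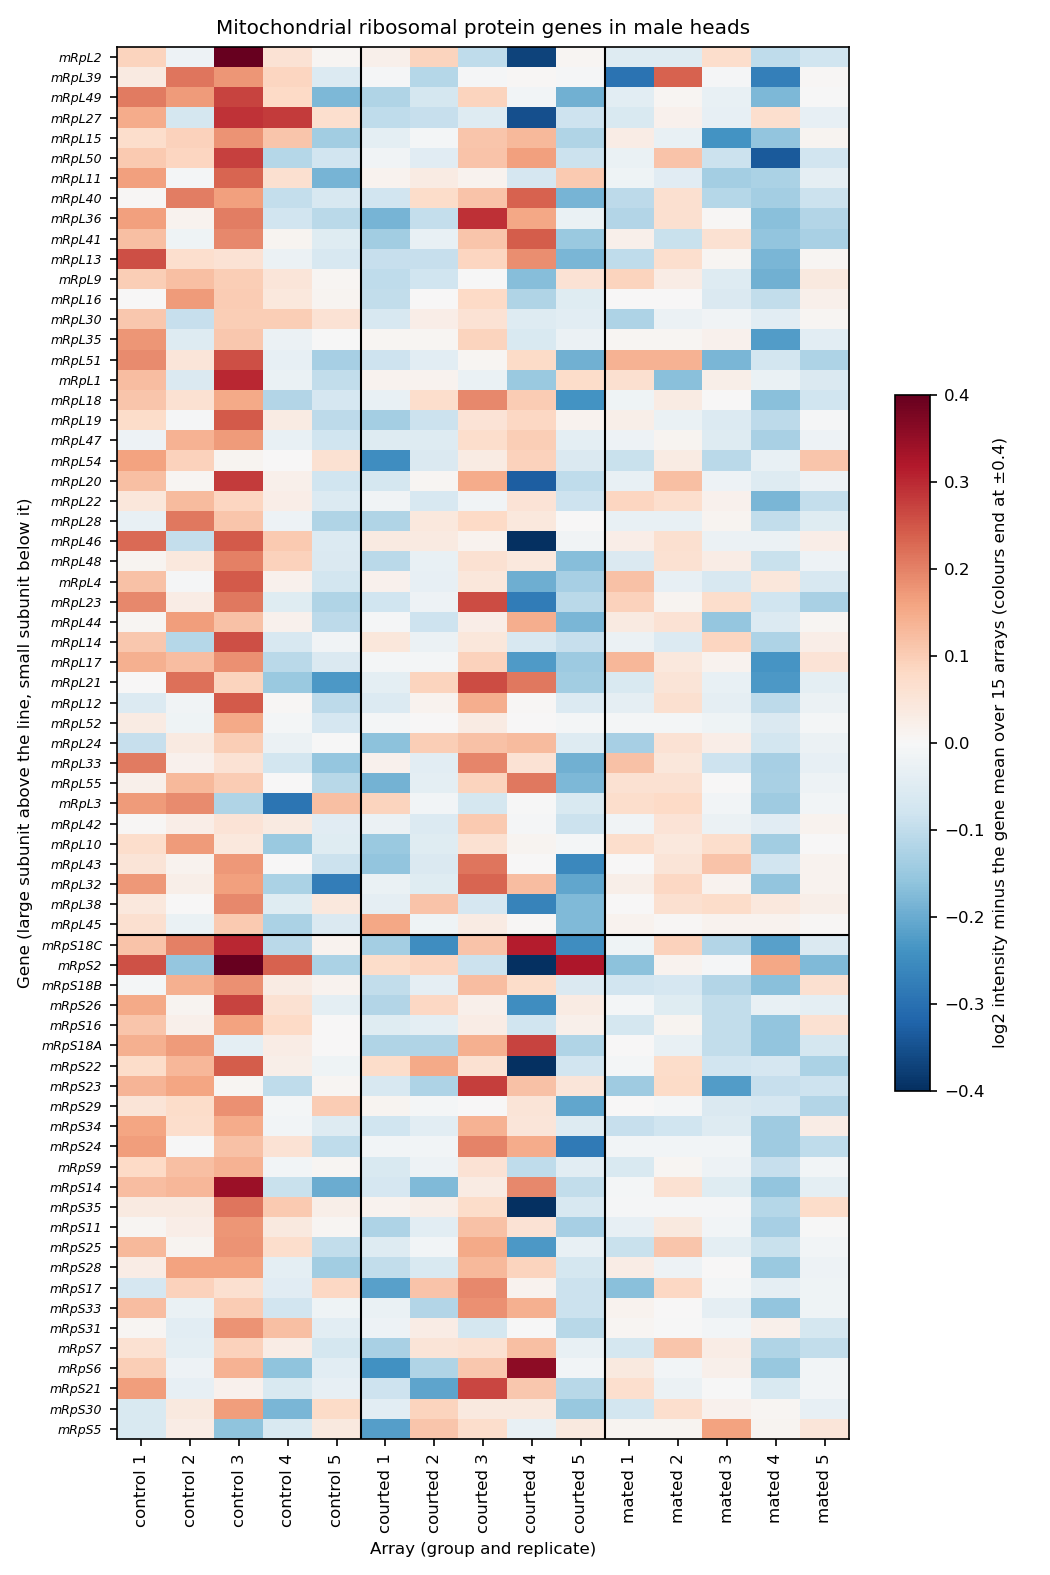
Log2 intensity of each of the 69 genes (rows, large subunit above the line and small subunit below it) in each of the 15 arrays (columns), as the deviation from the gene's mean. Control replicate 3 is red in nearly every row (66 of 69 above the mean), mated replicate 4 is mostly blue (8 of 69 above), and courted replicate 4 holds some of the strongest blue and red cells.

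The median over all 7631 probe sets of the same deviation was between -0.03 and 0.06 in every array, so the arrays as a whole were level. Control replicate 3 also stood highest for the genes of the respiratory chain and ATP synthase (0.13, 51 genes) and for cytosolic ribosomal protein genes (0.06, 29 genes). In that array, the summed intensity of fat body markers was 16250, the second highest of 15, where the control arrays ranged from 11495 to 16250, the courted from 11495 to 14058 and the mated from 13645 to 18425. The brightest fat body markers were fit and Lsp2 (mean intensities 8048 and 6384), which differed from control in opposite directions in mated heads (0.56 and -0.41). Sums for glia, photoreceptors, muscle and haemocytes were between the 12th and the 14th highest in control replicate 3. The part of any of these marker sums in the level of the 69 genes was not tested.

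**Figure D2:**
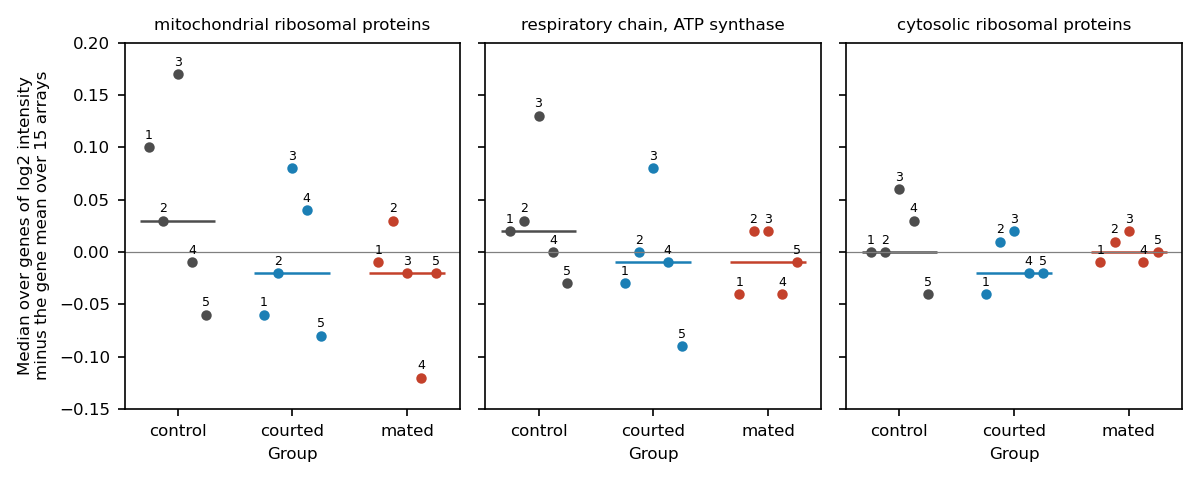
Median deviation of log2 intensity from the gene's own mean (vertical axis) in each array, for mitochondrial ribosomal protein genes (69), respiratory chain and ATP synthase genes (51) and cytosolic ribosomal protein genes (29). Points carry the replicate number, horizontal lines are group medians, and control replicate 3 is the highest point in each panel (0.17, 0.13 and 0.06).

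In heads of mated males, messages of the mitochondrial ribosome lay slightly below those of control heads, and no single gene passed the test. Of 69 genes, 66 had a log2 difference below 0, where 57.2% of all probe sets did. The median was -0.080, a change of -5.37%, against -0.015 over all probe sets, and the 69 differences ran from -0.17 for mRpS18C to 0.09 for mRpS5. At an adjusted p under 0.05 in limma, 0 of 69 were called (0.0393% of all probe sets), with a lowest adjusted p of 0.622. At an unadjusted p under 0.05, 6 genes were lower, 8.70% of the 69 against 4.23% of all probe sets, and 0 were higher against 2.87%. No gene had all 5 mated values below all 5 control values, which 0.996% of probe sets did. The median SE was 0.065, and the 95% intervals of the 69 genes spanned -0.60 to 0.28, both ends belonging to mRpS2. The 69 genes share arrays and RNA pools and are not independent, and no test was made of the list as a whole.

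Both subunits lay on the low side. Of 25 mRpS genes, 24 were below 0 with a median of -0.101, and 5 of the 6 genes with an unadjusted p under 0.05 were among them. Of 44 mRpL genes, 42 were below 0 with a median of -0.074, and 1 had an unadjusted p under 0.05. The difference between the subunits was not tested, and the genes with such a p changed with the algorithm. In dChip PM they were mRpL9, mRpL40 and mRpL49 and in dChip PM-MM mRpL40 and mRpL49, all of the large subunit. In MAS5.0 only mRpS29 had one. The median was -0.078 for the 40 genes with a bacterial counterpart and -0.082 for the 29 without. The medians were between -0.082 and -0.065 on each of the 5 chromosome arms.

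**Figure D3:**
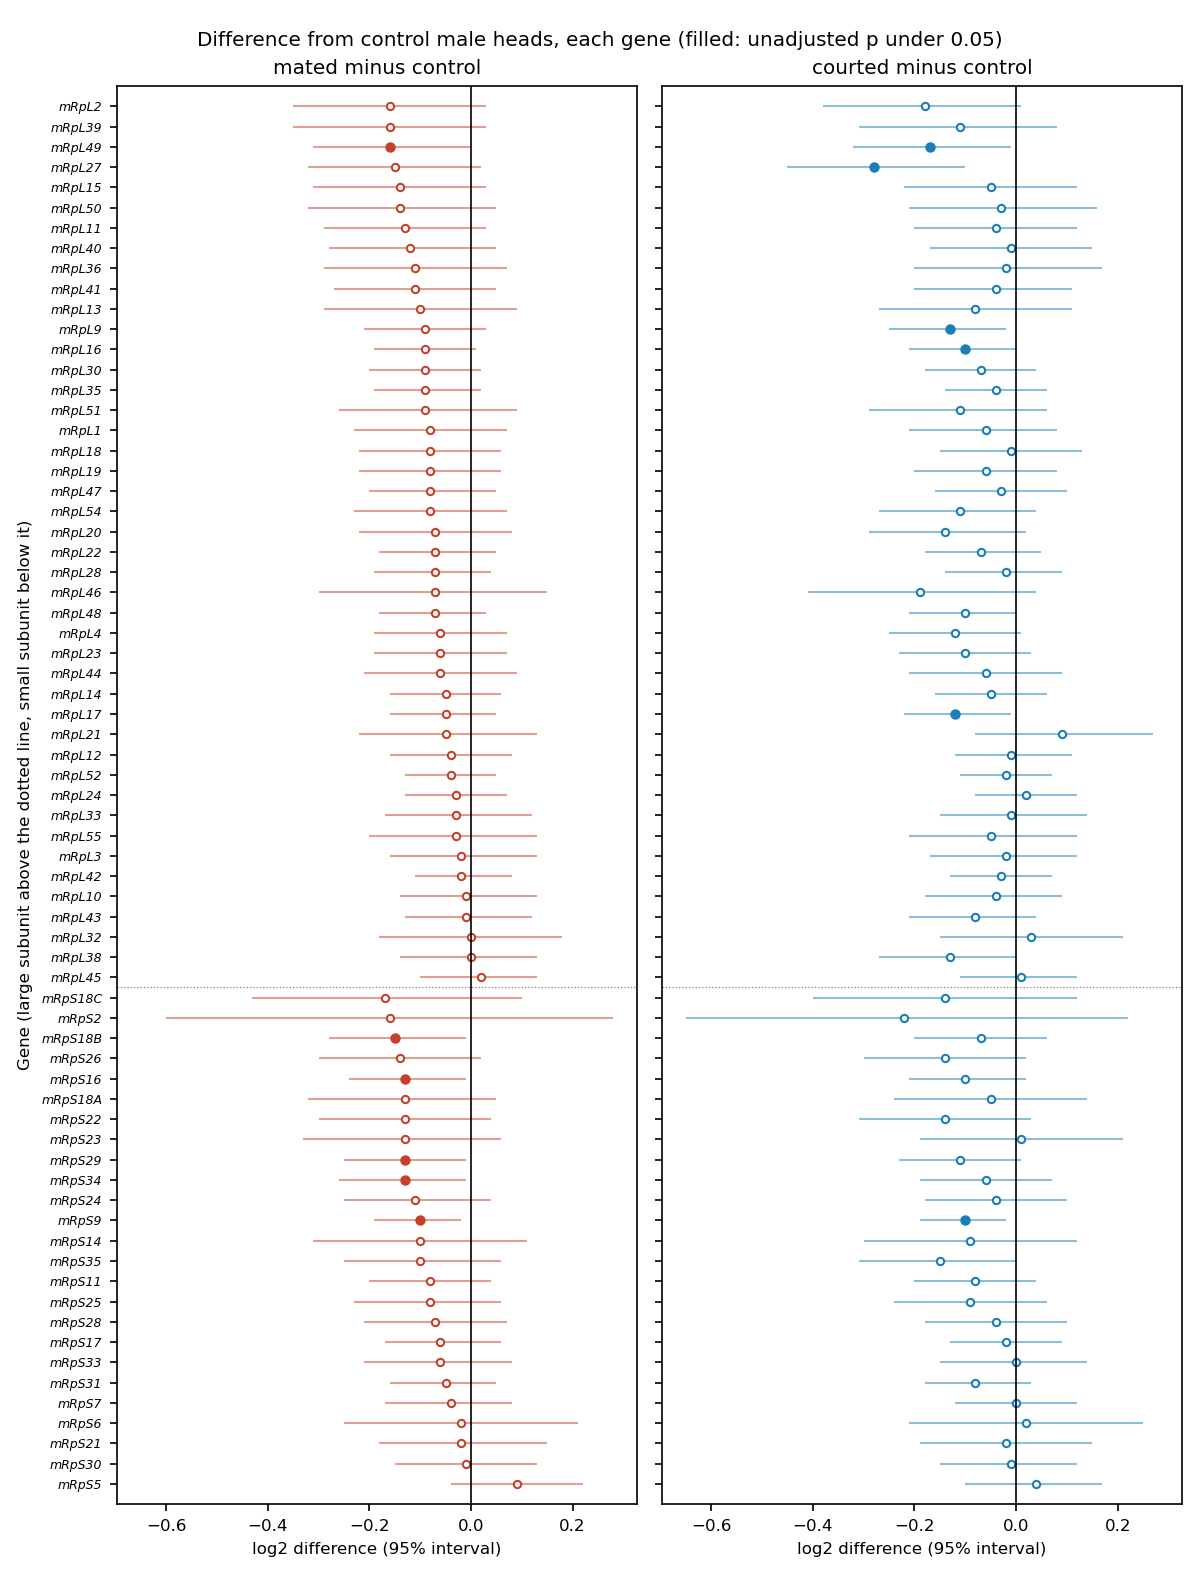
Log2 difference of each gene from control male heads (horizontal axis, point) with its 95% interval (line), for mated males on the left and courted males on the right, large subunit above the dotted line and small subunit below it. Filled points have an unadjusted p under 0.05 in limma, 6 in each panel, and nearly all points lie left of 0 (66 and 62 of 69).

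The lowest p belonged to mRpS9, the counterpart of a bacterial protein that reaches the tRNA in the decoding centre. Its log2 intensity in control replicates 1 to 5 was 11.81, 11.85, 11.87, 11.72 and 11.74. In mated replicates 1 to 5 it was 11.67, 11.74, 11.71, 11.64 and 11.72. Every mated value was below the control value of the same number, but mated replicate 2, at 11.74, lay above control replicate 4, so the groups overlapped. The difference was -0.10 (SE 0.04, 95% interval -0.19 to -0.02, limma p = 0.0211, adjusted p = 0.622), a change of -6.89%.

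For mRpS18B, 1 of 3 fly counterparts of bacterial S18, the control values were 9.31, 9.46, 9.50, 9.35 and 9.33 and the mated values 9.24, 9.25, 9.20, 9.15 and 9.38. Mated replicates 1 to 4 were all below the lowest control, and mated replicate 5 was above 3 of the controls. This gave -0.15 (SE 0.06, 95% interval -0.28 to -0.01, limma p = 0.0327, adjusted p = 0.681). The other copies had differences of -0.13 (mRpS18A) and -0.17 (mRpS18C), each lower in all 5 pairs of the same number, with p values of 0.144 and 0.189.

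mRpS29, a GTP-binding protein of the mitochondrial small subunit known in mammals as DAP3, read 9.36, 9.38, 9.49, 9.30 and 9.41 in control heads and 9.31, 9.30, 9.25, 9.24 and 9.19 in mated heads. All 5 pairs ran the same way, and the groups met at the top mated value, 9.31, just above the lowest control value, 9.30. Its difference was -0.13 (SE 0.05, 95% interval -0.25 to -0.01, limma p = 0.0331, adjusted p = 0.681).

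mRpS16, whose bacterial counterpart takes part in assembly of the small subunit, read 10.28, 10.19, 10.33, 10.25 and 10.17 in control heads and 10.10, 10.18, 10.07, 10.01 and 10.23 in mated heads. Mated replicate 5 was above 2 of the control values, and mated replicates 1, 3 and 4 were below all of them. The difference was -0.13 (SE 0.05, 95% interval -0.24 to -0.01, limma p = 0.0336, adjusted p = 0.681).

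mRpS34, a small subunit protein with no bacterial counterpart, had control values of 9.92, 9.83, 9.91, 9.75 and 9.71 and mated values of 9.67, 9.68, 9.71, 9.62 and 9.79. Replicate 5 was again the exception, with the mated value above 2 of the controls, and the difference was -0.13 (SE 0.06, 95% interval -0.26 to -0.01, limma p = 0.041, adjusted p = 0.681). In the large subunit, mRpL49, likewise without a bacterial counterpart, had control values of 10.32, 10.28, 10.38, 10.19 and 9.93 and mated values of 10.07, 10.12, 10.08, 9.93 and 10.11. Control replicates 1 to 4 were above every mated array, and control replicate 5 and mated replicate 4 both read 9.93. The difference of mRpL49 was -0.16 (SE 0.07, 95% interval -0.31 to 0.00, limma p = 0.0442, adjusted p = 0.685).

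The gene that stood highest in mated heads was mRpS5, whose bacterial counterpart lies where the message enters the ribosome and bears on the accuracy of decoding. Its values were 12.43, 12.52, 12.33, 12.43 and 12.53 in control heads and 12.50, 12.50, 12.65, 12.50 and 12.54 in mated heads. Control and mated arrays overlapped, and the difference was 0.09 (SE 0.06, 95% interval -0.04 to 0.22, limma p = 0.165, adjusted p = 0.798). The only other members above 0 were mRpL45 at 0.02 and mRpL32 at 0.00.

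Control and mated males of the same replicate number were collected together, so the difference can be read pair by pair. The median over the 69 genes was -0.10 in pair 1, -0.02 in pair 2, -0.17 in pair 3, -0.09 in pair 4 and 0.03 in pair 5, where all probe sets had medians between -0.02 and 0. In the same order, 59, 40, 66, 58 and 28 of the 69 genes were lower in the mated heads. Pairs 1, 3 and 4 thus carried the shift, pair 2 showed little, and pair 5 did not show it. A gene was lower in all 5 pairs in 12 cases, which is 17.4% of the 69 against 6.66% of all probe sets. These were mRpL2, mRpL18, mRpL23, mRpL40, mRpL41, mRpS9, mRpS18A, mRpS18C, mRpS22, mRpS24, mRpS26 and mRpS29, so that 7 of 12 had mRpS symbols.

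The counts of genes with an unadjusted p under 0.05 rested on few arrays. Without control replicate 3, 64 genes were below 0 with a median of -0.067, and 1 gene instead of 6 had an unadjusted p under 0.05. Without mated replicate 3, 59 were below 0 and 0 had such a p, and without courted replicate 4, which enters only through the shared spread, 12 did. Without that courted array the calls over all probe sets rose too, from 3 to 17. Shares of all probe sets below 0 or at an unadjusted p under 0.05 are not given for fits without an array, here or below. The 4 glial markers had differences above 0 in mated heads (Gs2 0.16, nrv2 0.16, Gat 0.25 and repo 0.08), none of which passed the test (limma adjusted p from 0.681 to 0.748), with sums of 15599 to 18364 in control, 16288 to 19327 in courted and 17925 to 21537 in mated arrays. The 5 haemocyte markers were also above 0 without passing the test (limma adjusted p from 0.611 to 0.963), with sums of 5077 to 6213, 5917 to 7159 and 6123 to 7549 in the same order. The 3 fat body markers above the threshold ran both ways. In mated heads fit had 0.56 (limma adjusted p = 0.0243), Jhe 1.15 (0.0982) and Lsp2 -0.41 (0.546). The part of any of these markers in the lower values of the ribosomal genes was not tested.

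Courted male heads, whose donors had been with a cauterized female, were compared with the same control arrays. Here too the genes lay slightly low, 62 of 69 being below 0 where 48.6% of all probe sets were. The median was -0.060, a change of -4.07%, against 0.003 over all probe sets. In limma, 0 of 69 genes were called, as were 0.0% of all probe sets, and the lowest adjusted p was 0.893. Without adjustment, 6 genes were lower at p under 0.05 (8.70% against 2.06% of all probe sets) and 0 were higher (against 2.96%), and no gene had groups that did not overlap (0.183% of all probe sets). The large subunit had a median of -0.057 with 40 of 44 below 0, and the small subunit one of -0.071 with 22 of 25 below 0. Both comparisons use the 5 control arrays, control replicate 3 included, so that their values are not independent. Without that array, 57 genes were below 0 in courted heads, the median was -0.051 and 2 genes had an unadjusted p under 0.05.

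The most different gene of the 69 in this comparison was mRpL27, whose bacterial counterpart reaches toward the site of peptide bond formation. Its control values were 9.60, 9.38, 9.74, 9.73 and 9.52, its courted values 9.35, 9.36, 9.40, 9.10 and 9.37 and its mated values 9.39, 9.47, 9.42, 9.52 and 9.42. Control replicate 2, at 9.38, lay within the courted range, and the other control values were above every courted one. Courted replicate 4 was far below the other courted arrays. The courted difference was -0.28 (SE 0.08, 95% interval -0.45 to -0.10, limma p = 0.0049, adjusted p = 0.893), a change of -17.5%, and the mated one -0.15. Leaving out replicate 4 brought the courted difference to -0.19.

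mRpS9 was lower in courted heads by as much as in mated heads. Its courted values were 11.67, 11.71, 11.79, 11.63 and 11.69, of which replicate 3 was above 2 of the controls, with a difference of -0.10 (SE 0.04, 95% interval -0.19 to -0.02, limma p = 0.0233, adjusted p = 0.893). mRpL49 had courted values of 9.99, 10.04, 10.20, 10.10 and 9.92 and a difference of -0.17 (SE 0.07, 95% interval -0.32 to -0.01, limma p = 0.0346, adjusted p = 0.893). These 2 genes were the members with an unadjusted p under 0.05 against control in both groups.

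mRpL9 is the counterpart of a bacterial protein that projects from the large subunit. Its values were 9.70, 9.72, 9.70, 9.65 and 9.61 in control heads, 9.50, 9.52, 9.60, 9.43 and 9.66 in courted heads and 9.69, 9.63, 9.55, 9.41 and 9.64 in mated heads. The control values spanned only 9.61 to 9.72, and courted replicates 1 to 4 were below that span while replicate 5 was within it. The courted difference was -0.13 (SE 0.05, 95% interval -0.25 to -0.02, limma p = 0.0304, adjusted p = 0.893) and the mated one -0.09.

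mRpL17, whose bacterial counterpart sits near the tunnel through which the new protein leaves, read 10.64, 10.62, 10.68, 10.39 and 10.44 in control heads and 10.49, 10.49, 10.59, 10.27 and 10.35 in courted heads. The groups overlapped widely. Each courted value was below the control value of the same number, and the fit matches arrays by that number. Whether that number pairs courted with control arrays is uncertain. The difference was -0.12 (SE 0.05, 95% interval -0.22 to -0.01, limma p = 0.0371, adjusted p = 0.893). The last of the 6 genes, mRpL16, which in bacteria lies by the tRNA sites of the large subunit, read 10.26, 10.43, 10.36, 10.30 and 10.27 in control and 10.16, 10.26, 10.34, 10.14 and 10.21 in courted heads. Its difference was -0.10 (SE 0.05, 95% interval -0.21 to 0.00, limma p = 0.0447, adjusted p = 0.893), and the groups overlapped.

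The genes above 0 in courted heads included mRpL21 at 0.09, mRpS5 at 0.04 and mRpL32 at 0.03, with p values of 0.279, 0.565 and 0.757. Courted replicate 4 was an uneven array for these genes, holding the lowest of the 15 values for 14 of them and the highest for 8. It was there that mRpL46 read 9.24, where the other courted values were 9.79 to 9.84, and that mRpS35 read 9.24. Without that array, 66 genes were below 0 in courted heads with a median of -0.084, and 12 genes instead of 6 had an unadjusted p under 0.05. The share of all probe sets with such a p in that fit is not given, so the rise cannot be ascribed to these genes.

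**Figure D4:**
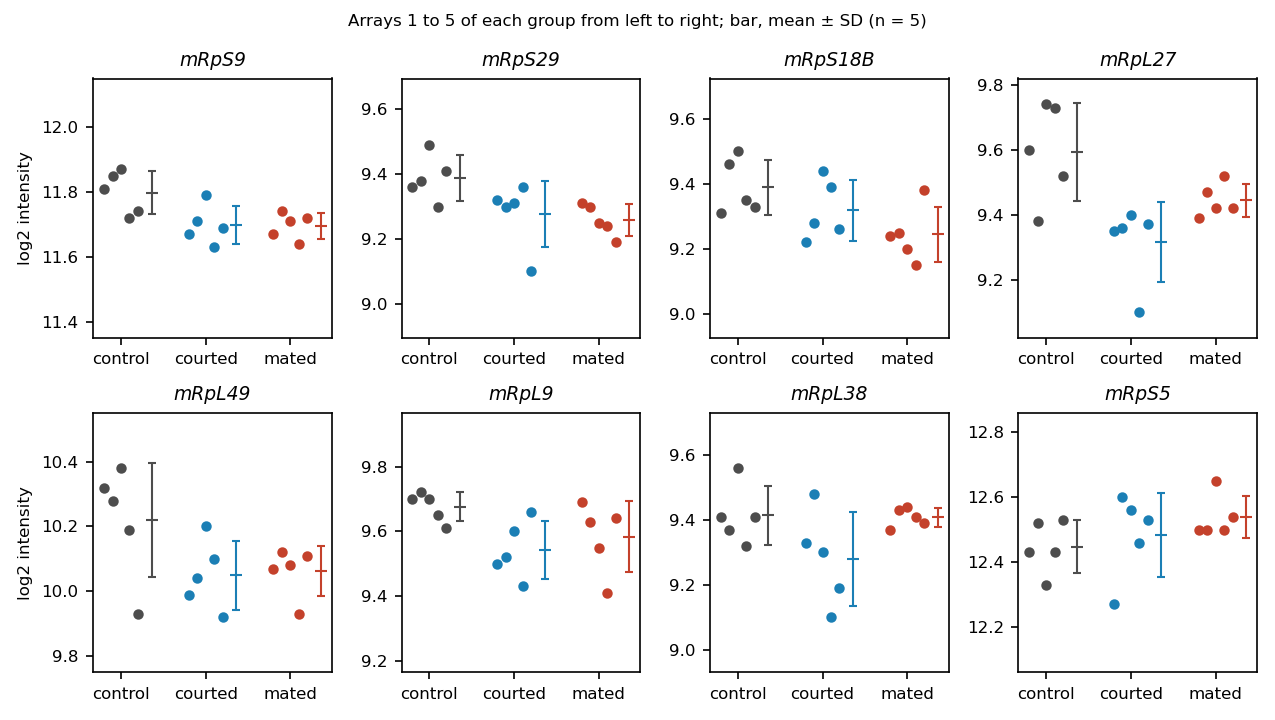
Log2 intensity (vertical axes, all of equal span) of 8 genes in control, courted and mated male heads, with replicates 1 to 5 from left to right and the mean ± SD of each group beside them. The groups overlap in all 8 panels, and the low courted point of mRpL27 is replicate 4 at 9.10.

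Between mated and courted heads the genes did not lie to 1 side. Of 69, 37 were below 0, where 60.3% of all probe sets were, and the median of -0.014 stood beside -0.018 over all probe sets. In limma, 0 genes were called (0.0524% of all probe sets), with a lowest adjusted p of 0.981. Unadjusted, 0 were lower (2.94% of all probe sets) and 0 higher (1.24%) at p under 0.05. The 95% intervals of the 69 genes reached from -0.38 to 0.49, both ends again from mRpS2.

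The lowest p of this comparison, 0.0569, was that of mRpL38, a large subunit protein without a bacterial counterpart. Its courted values were 9.33, 9.48, 9.30, 9.10 and 9.19 and its mated values 9.37, 9.43, 9.44, 9.41 and 9.39. Mated arrays were tightly grouped, and courted replicate 2 was above all of them while the other courted arrays were below. The difference of mated minus courted was 0.13 (SE 0.06, 95% interval 0.00 to 0.26, limma p = 0.0569, adjusted p = 0.981).

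mRpL21, the counterpart of bacterial L21, read 8.38, 8.51, 8.68, 8.63 and 8.28 in courted heads and 8.36, 8.47, 8.39, 8.19 and 8.38 in mated heads. Its values overlapped, courted replicates 3 and 4 being the highest, and the difference was -0.14 (SE 0.08, 95% interval -0.31 to 0.04, limma p = 0.111, adjusted p = 0.981). For mRpS23, a small subunit protein without a bacterial counterpart, the courted values were 8.19, 8.13, 8.53, 8.37 and 8.30 and the mated values 8.11, 8.33, 8.03, 8.16 and 8.17. Courted replicates 3 and 4 were once more the highest, and the difference was -0.14 (SE 0.09, 95% interval -0.34 to 0.05, limma p = 0.134, adjusted p = 0.981).

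mRpL40, likewise specific to mitochondria, read 8.41, 8.56, 8.60, 8.72 and 8.30 in courted heads and 8.38, 8.55, 8.37, 8.35 and 8.40 in mated heads. The values overlapped, and the difference was -0.11 (SE 0.07, 95% interval -0.27 to 0.06, limma p = 0.18, adjusted p = 0.981). In the other direction, mRpL27 was above its courted level in mated heads, the groups meeting where courted replicate 3 (9.40) lay above mated replicate 1 (9.39), with a difference of 0.13 (SE 0.08, 95% interval -0.05 to 0.30, limma p = 0.135, adjusted p = 0.981).

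The authors had derived intensities from the same arrays with 5 algorithms, and the low position of the genes relative to control was found in each of them to a varying degree. For mated against control, 65 of the 69 genes were below 0 in GeneSpring GC-RMA, 53 in dChip PM, 52 in dChip PM-MM and 57 in MAS5.0, with medians of -0.078, -0.036, -0.036 and -0.052. All probe sets tested had medians of -0.016, 0.008, 0.022 and 0.000 in the same order, and 57.94%, 46.37%, 39.03% and 49.83% were below 0. For courted against control, the counts were 63, 60, 62 and 53, with medians of -0.051, -0.064, -0.059 and -0.050, where all probe sets had medians of 0.004, -0.032, -0.005 and -0.001. Of all probe sets, 47.64%, 65.02%, 52.14% and 50.25% were below 0. No gene was called by limma in any algorithm and comparison.

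By gene, the sign was the same in all 5 algorithms for 44 lower and 2 higher genes of 69 in mated against control heads, for 49 lower and 3 higher in courted against control heads, and for 12 lower and 19 higher between mated and courted heads. mRpL27 in courted heads had an unadjusted p under 0.05 in all 5, with differences from -0.28 to -0.20. mRpL9 and mRpL17 had one in 4 of 5, and mRpL49, mRpS9 and mRpS35 in 3 of 5. In mated heads, mRpL49 and mRpS29 had one in 3 of 5, and mRpS9 in 2 of 5, with differences from -0.10 to -0.05. mRpS18B, mRpL9 and mRpL40 also had one in 2 of 5. For mRpS9 and mRpS18B these were the 2 versions of GC-RMA, and mRpS16 and mRpS34 had one in R/Bioconductor GC-RMA only. mRpS5 was above 0 in mated and in courted heads in all 5, as was mRpL32. Between mated and courted heads the median changed sign with the algorithm, being 0.016 in dChip PM and 0.020 in dChip PM-MM, where 20 and 18 of the 69 genes were below 0. The median over all probe sets tested changed sign too, being 0.035 and 0.021, with 31.65% and 37.19% of them below 0.

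**Figure D5:**
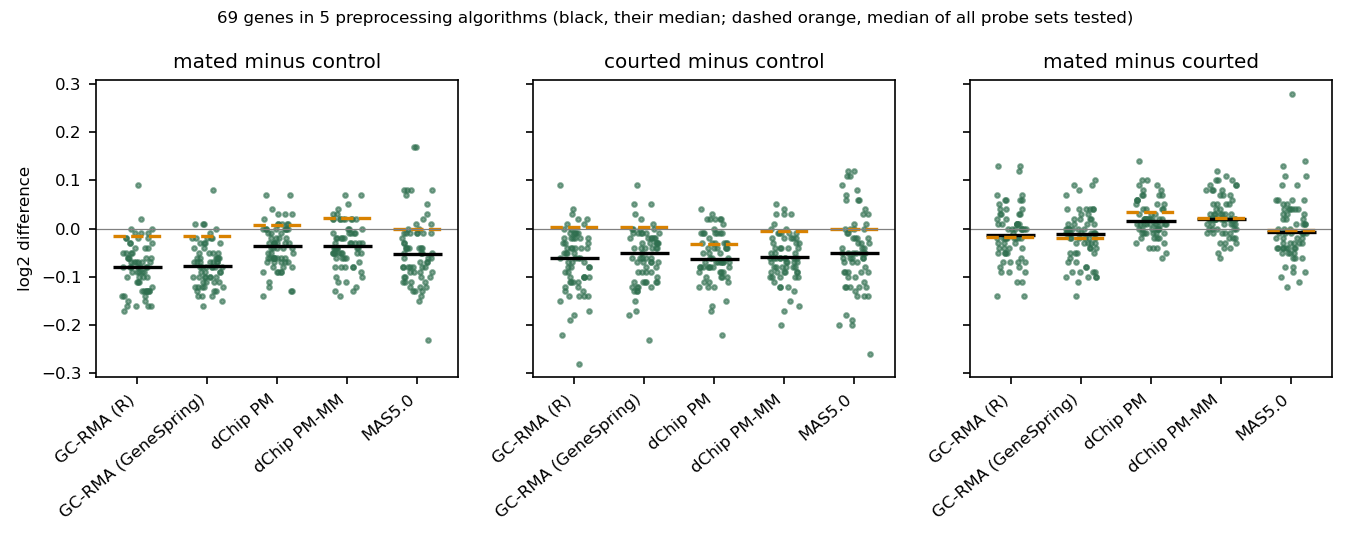
Log2 differences of the 69 genes (points) in 5 preprocessing algorithms for 3 comparisons, with the median of the 69 (black line) and of all probe sets tested (dashed orange line). Against control the black line is below the dashed one in every algorithm (for mated heads -0.080 and -0.015 in R/Bioconductor GC-RMA), and between mated and courted heads the lines nearly coincide in most.

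Among subunits outside the naming rule, values against control lay on both sides of 0. tko, a gene whose mutants are known for seizures, slow development and impaired male courtship, read 10.54, 10.61, 10.78, 10.41 and 10.39 in control heads and 10.46, 10.49, 10.52, 10.28 and 10.39 in mated heads. It was lower in the mated head of every pair, the fifth by less than the printed digits show, with a difference of -0.12 (SE 0.06, 95% interval -0.26 to 0.02, limma p = 0.0885, adjusted p = 0.727), and of -0.08 in courted heads. For bonsai the differences were -0.08 in mated and -0.03 in courted heads, with p values of 0.176 and 0.606. CG4866, for which RefSeq lists mRpS4 as a synonym, had -0.04 and 0.02. The probe set shared by mRpS10 and CG34316 had 0.05 and 0.04, and the one shared by mRpL53 and CG33155 had -0.05 and -0.03. A second probe set of mRpS11, whose brightest one had -0.08 in both comparisons, gave -0.01 and 0.02, and a second one of mRpL47 gave -0.06 and 0.01 where the brightest had -0.08 and -0.03.

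Other gene lists of the same machinery give these values a setting. Cytosolic ribosomal protein genes serve translation outside the organelle, and 29 had a probe set of their own above the threshold. These 29 had a median of -0.007 in mated and -0.024 in courted heads against control. Of them, 17 and 23 were below 0 and 0 had an unadjusted p under 0.05. Their probe sets were far brighter, the dimmest of the 29 (RpL34a, mean intensity 6022) lying above the brightest of the 69 genes (mRpS5, 5764). Any effect of brightness on the size of the differences was not tested. Products of nuclear genes of the respiratory chain and ATP synthase join the subunits made by the mitochondrial ribosome. The 51 such genes taken by symbol and above the threshold had medians of -0.044 and -0.039, with 44 and 46 below 0. Among these, ND-13B of complex I had -0.15 in mated heads (SE 0.06, limma p = 0.0259, adjusted p = 0.670) and ND-19 of the same complex -0.11 in courted heads (SE 0.04, limma p = 0.0189, adjusted p = 0.893). The differences between these lists and the mitochondrial ribosomal protein genes were not tested.

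Of 20 genes listed as mitochondrial aminoacyl-tRNA synthetases, 14 were measured above the threshold, with medians of -0.064 in mated and -0.018 in courted heads and 12 and 9 below 0. The listed genes included slimp, HisRS, GlyRS, LysRS and ThrRS, whose symbols lack the mitochondrial ending -m. SerRS-m and ProRS-m, which charge mitochondrial tRNAs with serine and proline, had the lowest p values of the list in courted heads, with differences of -0.17 (SE 0.06, limma p = 0.0120) and -0.25 (SE 0.10, limma p = 0.0261), and adjusted p values of 0.893. Translation factors, 7 of 13 measured, had medians of -0.025 and -0.043, with mEFTs, the exchange factor of the mitochondrial elongation factor Tu, at -0.13 and -0.17. Genes of mitochondrial transcription and RNA handling, 13 of 18 measured, had medians of -0.029 in both comparisons. In a list of chaperones and proteases, 9 of 10 genes were measured, with medians of -0.069 and -0.031. That list also held TFAM, a gene of the transcription list. Among 8 of 12 regulators of growth and mitochondrial biogenesis, the transcription factor foxo had -0.23 in mated heads (SE 0.10, limma p = 0.0468, adjusted p = 0.687), and Ets97D, the fly relative of a mammalian activator of respiratory genes, had 0.15 in mated heads and 0.18 in courted heads (SE 0.07 in each, limma p = 0.0655 and 0.0327). In limma, 0 genes of these lists were called in any comparison.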

How the data were processed

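Head RNA of 15 pools was hybridized to Drosophila Genome 2.0 arrays from Affymetrix. The authors deposited linear intensity values per probe set from 5 algorithms (GC-RMA in R/Bioconductor and in GeneSpring, dChip PM, dChip PM-MM and MAS5.0). The submitters' processing notes name GCOS 1.2, and no version of another program is given in the sources used here. The values of 1 array from 5 algorithms were treated as 1 replicate. The GeneSpring column is empty at place 3092 and stands 1 place lower after it, so it was moved up, which raised its correlation across probe sets with R/Bioconductor GC-RMA from 0.0124 to 0.988.

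R/Bioconductor GC-RMA intensities, floored at 1 and put on the log2 scale, were fitted in limma 3.58.1 (R 4.3.3) over all 15 arrays with the replicate number blocked. Adjusted p values are Benjamini-Hochberg values over the probe sets whose mean exceeded 100 (50 in dChip), 7631 here, 8084 in GeneSpring GC-RMA, 8517 in MAS5.0, 10237 in dChip PM-MM and 15538 in dChip PM. Every p and adjusted p is two-sided and from these fits. The methods describe control and mated males collected as pairs, and same-numbered control and mated arrays deviated together (correlations across probe sets of 0.33, 0.46, 0.48, 0.43 and 0.09). Same-numbered courted and control arrays did so in part (0.15, -0.26, 0.18, -0.31 and 0.33) and the values for mated and courted arrays were mixed in sign (0.04, -0.45, 0.16, -0.44 and 0.01). Courted arrays were therefore not described pair by pair, except for mRpL17. The block in the main fits still matches courted arrays by number, and the SE and p of courted heads given above rest on that. Fits without the block were also run. That pools of a group came from separate males is in the labels, and no more is known of their independence.

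Probe sets assigned to 1 gene (13646 of 18952) were named. The members, the other lists and the tests were chosen with earlier results of these data known. Described in full were the 5 members with the lowest p in each comparison, and of each other list up to 4 genes. mRpL49 and mRpL16 (both among the 6 with an unadjusted p under 0.05), mRpS5, mRpS2, mRpL46 and mRpL52 were singled out after their values were seen. The script was tested on simulated data. Alternatives were other algorithms, filters, fits and left-out arrays. Sequences were not used here.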

Additional observations from a re-analysis of the deposited data

Results flagged for a closer look

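In each of the 69 genes and each group of 5 arrays, and in the group medians, the most extreme array was set against its nearest neighbour, 210 groups in all. An array stood apart where that gap was over 0.71 of the group's range, which chance gives in about 1 of 20 groups.

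Mated replicate 4 stood apart on the low side for mRpL35 (9.39, next value 9.57), mRpL49 (9.93, next 10.07), mRpL52 (9.99, next 10.03), mRpS6 (8.30, next 8.44) and mRpS28 (10.51, next 10.64). It is also the array with the lowest median over the 69 genes. Other mated arrays that stood apart were replicate 2 on the high side for mRpL20 (9.84) and mRpL40 (8.55), replicate 3 on the high side for mRpL2 (9.54) and replicate 5 on the low side for mRpS31 (9.37).

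Courted replicate 4 was low for mRpL27 (9.10, next 9.35), mRpL46 (9.24, next 9.79) and mRpS35 (9.24, next 9.58). Courted replicate 2 was low for mRpL39 (7.39), replicate 5 low for mRpS29 (9.10) and replicate 3 high for mRpL52 (10.08). Among control arrays, replicate 3 was high for mRpL2 (9.90, next 9.56) and mRpS11 (10.78, next 10.64), and replicate 2 was low for mRpL30 (10.74).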

How the results depend on the processing

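No member was called at an adjusted p under 0.05 in any comparison under any setting run, and the lowest adjusted p of a named member was 0.421 between mated and control heads, 0.602 between courted and control heads and 0.668 between mated and courted heads. Against control, most members stayed below 0 in every setting (52 or more of 69 for mated, 50 or more for courted). The count of members lower with an unadjusted p under 0.05 was less stable. For mated against control it was 6, and with arrays centred on their medians 2, in MAS5.0 1, in dChip PM-MM 2 and in dChip PM 3, while with only the 2 groups compared it was 9. Of all probe sets, 2.771% in MAS5.0, 2.198% in dChip PM-MM and 2.896% in dChip PM were lower with such a p. The excess of the main fit, 8.70% of the 69 against 4.23% of all probe sets, was thus absent in MAS5.0 and smaller in both dChip versions. For courted against control it was 6, and 3 in MAS5.0 (against 1.89% of all probe sets), 10 with no filter on dim probe sets and 3 with only the 2 groups compared. The members below 0 for mated against courted, 37, became 20 in dChip PM and 18 in dChip PM-MM. Of all probe sets tested, 31.65% and 37.19% were below 0 in these 2, against 60.3% in the main fit. The causes of these changes were not tested. The share of all probe sets at an unadjusted p under 0.05 is not given for some fits. These are the centred, unfiltered and 2-group fits and those without the block, so their counts have no background here.

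Leaving out 1 replicate number or 1 array moved the unadjusted count between 0 and 12 for mated against control (0 without replicate 3 or without mated replicate 3, 7 without replicate 5, 12 without courted replicate 4). It moved between 1 and 12 for courted against control (1 without replicate 1, 2 to 12 over single arrays, 7 without replicate 5) and between 0 and 1 for mated against courted. The median ran from -0.107 to -0.050 between mated and control heads, from -0.084 to -0.033 between courted and control heads and from -0.036 to 0.019 between mated and courted heads. Without the replicate block, the pairing being uncertain for courted arrays, 5 members in mated and 4 in courted heads were lower at an unadjusted p under 0.05 and 0 were called. Over all probe sets, calls for mated against control were 3. They ranged from 0 (with only the 2 groups compared, and without replicate 2, 3 or 5) to 17 (without courted replicate 4) in limma, with 5 without the block, and were 37 in the paired Cyber-T test that the methods name.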
